A study of Homo sapiens with 9 samples.

Results

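The IL6 receptor, STAT3 and SOCS feedback genes were described as 10 members chosen by their symbols. They were the cytokine *IL6*, the receptor chains *IL6R*, *IL6ST* and *LIFR*, the kinase *JAK1*, the transcription factor *STAT3*, and the feedback inhibitors *SOCS1*, *SOCS2*, *SOCS3* and *CISH*. All 10 were found among 59452 genes of the gene table, and 9 had enough counts to be tested. *SOCS2*, 1.28-fold higher in suspended cells with vehicle, was the 1 member that passed the threshold there, as did 21.2% of all genes tested. *CISH* was 1.11-fold higher, short of the threshold. *STAT3* and *JAK1* differed from their attached level by 3.72% and 4.36%, short of the threshold, and *IL6* itself had at most 1 count in any library.

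RNA was sequenced from MDA-MB-453 cells, an established breast cancer line that the labels call triple-negative and wild type, grown in DMEM with fetal bovine serum. The 3 conditions were attached culture with vehicle (DMSO), forced suspension culture on poly-HEMA-coated plates with vehicle, and forced suspension culture with 10 µmol/L AT0174, an inhibitor of TDO2 and IDO1, the enzymes that open the kynurenine pathway of tryptophan breakdown. Each condition had 3 biological replicates taken at 48 hours. Attached cells with AT0174 were not analysed here, so the inhibitor is compared in suspended cells alone, and the results hold for 1 cell line. Library totals ran from 36649997 to 48019126 estimated counts. Where a gene had no count, up to 3 counts could have gone unseen, which corresponds to 0.0625 to 0.0819 CPM (counts relative to the library total) and covers counting error only. CPM levels of genes use library totals scaled by TMM, the normalization of edgeR.

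IL6 family cytokines bind a specific receptor chain and the shared chain gp130, the product of *IL6ST*, and thereby activate JAK kinases on the inner side of the membrane. The kinases phosphorylate STAT3, which forms dimers, moves to the nucleus and binds palindromic DNA elements in its target genes. The SOCS proteins and CIS, the product of *CISH*, are induced by STAT factors and dampen the receptors that induced them. *SOCS3* is the classical feedback inhibitor of gp130, whereas *SOCS2* and *CISH* are best known as targets of STAT5 downstream of the growth hormone and prolactin receptors.

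All 8 luminal epithelial markers were tested and high, with *KRT8* at 889 ± 8.80 CPM and *GATA3* at 1248 ± 32.9 CPM in attached cells (SD, n = 3). *ERBB2*, one of the receptors whose absence at the protein level defines the triple-negative class, stood at 1052 ± 27.5 CPM, and protein was not measured here. Of the 5 leukocyte markers, *CD3E* was at 0 counts, *PTPRC* at no more than 2, and *CD14* and *LYZ* at no more than 4 counts in any library. *CD68* was above the floor and was tested, with 53 to 102 counts per library and 1.69 ± 0.172 CPM in attached cells. The fibroblast marker *DCN* was at 0 counts in every library and *COL1A2* at no more than 4, although *COL1A1* was at 137 ± 10.2 CPM.

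Levels of different members were compared on the TPM scale, which divides by transcript length. Averaged over 9 libraries, *STAT3* was the highest member at 32.9 TPM, followed by *CISH* at 28.3, *SOCS2* at 24.6 and *JAK1* at 24.3 TPM. *IL6ST* was at 4.12 TPM, *SOCS1* at 1.80, *IL6R* at 1.79, *SOCS3* at 1.1 and *LIFR* at 0.622 TPM. The signal transducers and the inhibitors linked to STAT5 thus stood well above the receptor chains and above *SOCS1* and *SOCS3*. The mean TPM of *STAT3* was 18.4 times that of *IL6R* and 8.0 times that of *IL6ST*. Among the inhibitors, the mean TPM of *CISH* was 25.6 times that of *SOCS3*, and that of *SOCS2* was 22.3 times that of *SOCS3* and 13.6 times that of *SOCS1*. In every condition, the replicates of *CISH* overlapped those of the gene next below it, and those of *SOCS1* and *IL6R* overlapped each other, so these neighbours were not separated. *STAT3* stood above *CISH*, and *IL6ST* stood between the 4 highest genes and the rest, with no overlap in each of the 3 conditions. The order of *SOCS2* and *JAK1* differed by condition. In attached cells *JAK1*, at a mean of 23.4 TPM, stood above *SOCS2*, at 19.6 TPM, without overlap. In suspended cells with vehicle *SOCS2*, at 28.7 TPM, stood above *JAK1*, at 25.4 TPM, without overlap, and with AT0174 the genes overlapped.

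The ligand *IL6* (chromosome 7, 22725884 to 22732002, plus strand; all gene positions are on GRCh38) had 0 counts in 7 libraries. The other 2, suspended vehicle replicate 3 and AT0174 replicate 2, had 1 count each. It did not pass the filter on low counts, and all 9 libraries lie under the floor of 3 counts, so no fold change is given. Of the 11 genes in a list of IL6 family ligands, 3 were tested (*IL11*, *CNTF* and *CLCF1*), and none passed the threshold in edgeR between suspended and attached cells with vehicle or between AT0174 and vehicle. Between suspended cells with AT0174 and attached cells with vehicle, *IL11*, with 18 to 63 counts, was lower (log2 fold change −0.96, edgeR adjusted p = 0.0476). *LIF*, the ligand of *LIFR*, had between 2 and 18 counts and was not tested.

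**Figure D1:**
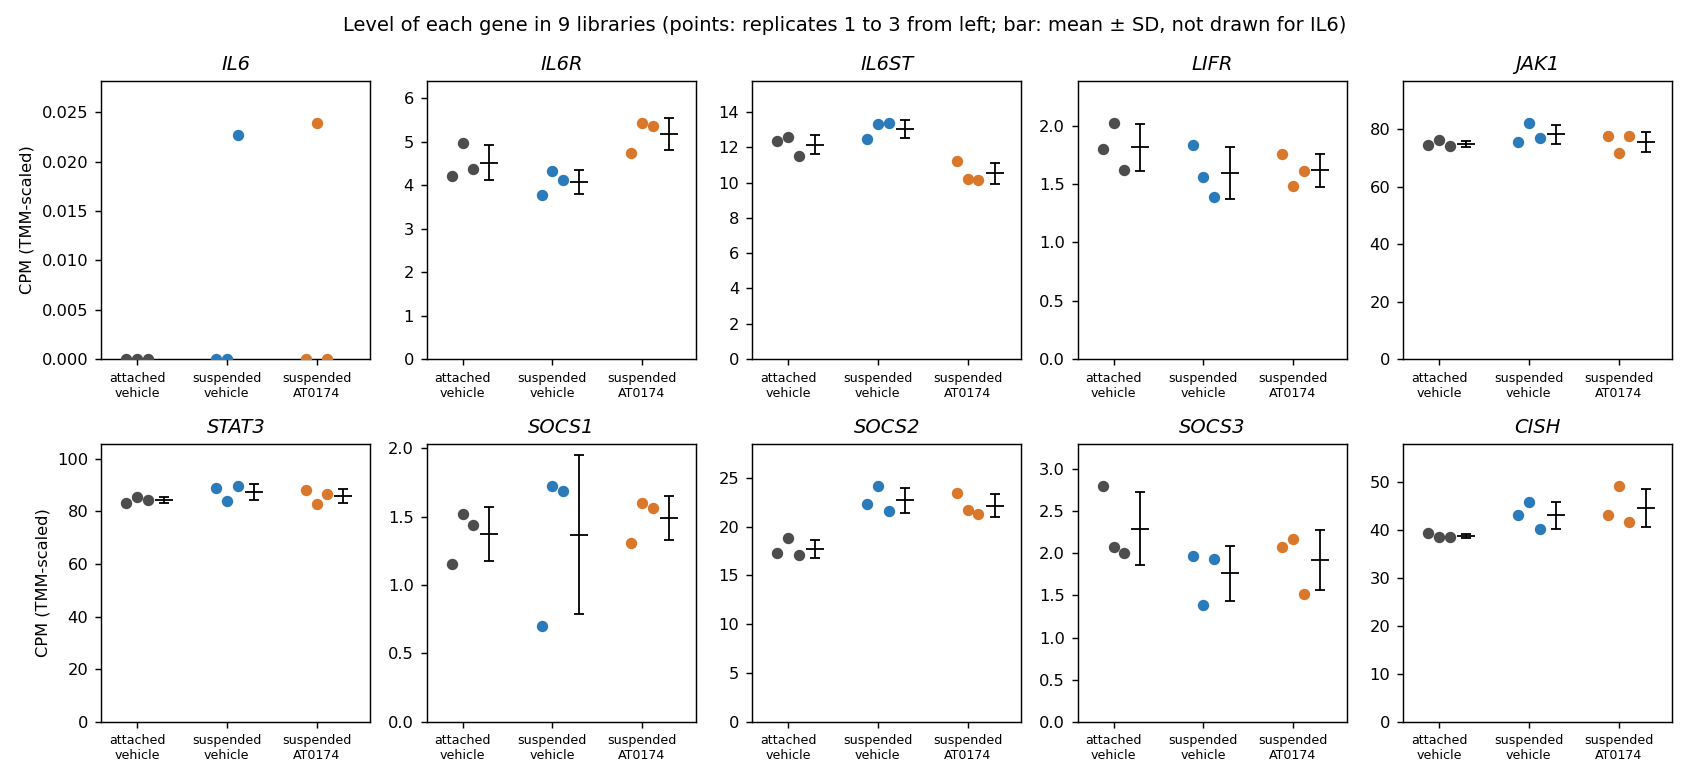
Each panel plots one gene, with TMM-scaled CPM on the y axis (each axis starts at 0) and the 3 conditions on the x axis. Points are libraries and bars are means ± SD of 3 libraries. For *SOCS2* the 6 suspended libraries, between 21.2 and 24.1 CPM, sit above the 3 attached ones, which end at 18.8 CPM. For *STAT3* and *JAK1* the conditions overlap.

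The receptor chain *IL6R* (chromosome 1, 154405193 to 154469450, plus strand), which binds IL6 and presents it to gp130, had 146 to 237 counts per library. It measured 4.21, 4.98 and 4.38 CPM in the attached libraries, 3.77, 4.33 and 4.12 CPM in the suspended vehicle libraries, and 4.74, 5.42 and 5.37 CPM in suspended cells with AT0174. The attached and suspended vehicle libraries overlapped, whereas each AT0174 library was above each suspended vehicle library. The log2 fold change was −0.15 in suspension (standard error 0.109, adjusted p = 0.372 in edgeR) and 0.34 with AT0174 (standard error 0.107, adjusted p = 0.255 in edgeR). Adjusted p-values here and below are Benjamini–Hochberg values over the 15528 genes tested, from the quasi-likelihood test of edgeR unless another tool is named, and neither difference passed the threshold of 0.05.

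*IL6ST* (chromosome 5, 55935095 to 55995022, minus strand) encodes gp130, the signaling chain that the receptors of the family share. It measured 12.3, 12.6 and 11.5 CPM in the attached libraries and 12.5, 13.3 and 13.4 CPM in the suspended vehicle libraries. In suspended cells with AT0174 it measured 11.2, 10.2 and 10.2 CPM. The 3 AT0174 libraries were the lowest of all 9 for this gene, and they overlapped neither vehicle group. In suspension with vehicle the log2 fold change was 0.10 (standard error 0.0649, edgeR adjusted p = 0.292), and those groups overlapped. Against suspended vehicle the log2 fold change was −0.31, or 0.809-fold (standard error 0.0648, 95% interval −0.45 to −0.17), with an edgeR adjusted p of 0.0542, short of the threshold. DESeq2 gave an adjusted p of 0.0457 for the same difference, whereas limma-voom gave 0.0583.

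*LIFR* (chromosome 5, 38474668 to 38608354, minus strand), the chain that pairs with gp130 to bind LIF, had 61 to 85 counts per library. Its mean was 1.82 ± 0.199 CPM in the attached libraries, 1.60 ± 0.225 CPM in the suspended vehicle libraries and 1.62 ± 0.140 CPM with AT0174 (SD, n = 3 each). The conditions overlapped in both comparisons. The 95% intervals of the log2 fold change were wide, from −0.57 to 0.20 for suspension and from −0.36 to 0.40 for AT0174, so changes within these intervals were not excluded.

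*JAK1* (chromosome 1, 64833223 to 65067754, minus strand) encodes a kinase bound to gp130. It stood at 75.0 ± 1.03 CPM in the attached libraries, 78.2 ± 3.43 CPM in the suspended vehicle libraries and 75.7 ± 3.50 CPM with AT0174 (SD, n = 3 each). Its log2 fold change was 0.06 in suspension (95% interval −0.03 to 0.15, adjusted p = 0.341 in edgeR) and −0.05 with AT0174 (95% interval −0.14 to 0.04, adjusted p = 0.823 in edgeR).

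*STAT3* (chromosome 17, 42313324 to 42388540, minus strand) measured 83.2, 85.5 and 84.3 CPM in attached cells. It measured 88.8, 83.9 and 89.6 CPM in suspended cells with vehicle, and 88.2, 82.8 and 86.8 CPM with AT0174. The ranges of the 3 conditions overlapped. The log2 fold change was 0.05 in suspension (95% interval −0.03 to 0.13, adjusted p = 0.348 in edgeR) and −0.02 with AT0174 (95% interval −0.10 to 0.05, adjusted p = 0.914 in edgeR). Phosphorylation, on which the activity of STAT3 depends, was not measured in these libraries.

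*SOCS2* (chromosome 12, 93569814 to 93583487, plus strand) encodes an adaptor of a ubiquitin ligase that restrains growth hormone signaling. It measured 17.3, 18.8 and 17.1 CPM in attached cells, from 663, 679 and 663 counts. In suspended cells with vehicle it measured 22.4, 24.1 and 21.6 CPM, and with AT0174 it measured 23.5, 21.7 and 21.2 CPM. Each of the 6 suspended libraries was above each attached library, and the suspended conditions overlapped each other. The log2 fold change in suspension was 0.36, or 1.28-fold (standard error 0.0608, 95% interval 0.23 to 0.49), with an edgeR adjusted p of 0.00208. Between AT0174 and vehicle it was −0.04 (standard error 0.0589, 95% interval −0.16 to 0.09, edgeR adjusted p = 0.921). In bulk RNA, a change in the share of cells that express a gene and a change in its RNA per cell cannot be told apart.

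Some cell type markers moved with culture condition beside *SOCS2*. The summed level of the 8 luminal markers ranged from 5949 to 6065 CPM over attached libraries and from 6266 to 6428 CPM over suspended vehicle libraries. In edgeR 3 of the 8 were higher, *KRT19* and *FOXA1* among them, where 10.4% of all genes tested were higher. The other 5 were not called, *KRT8*, *GATA3* and *ERBB2* among them. The summed level of 6 fibroblast and endothelial markers ranged from 131 to 149 CPM over attached libraries and from 112 to 114 CPM over suspended vehicle libraries. This sum was almost all *COL1A1*, the 1 marker of that list that was tested, which was lower in suspension (log2 fold change −0.28, edgeR adjusted p = 0.00182), while *DCN* was at 0 counts throughout. The 5 leukocyte markers summed to at most 2.40 CPM in any library. The part of the markers that moved in the *SOCS2* difference was not tested.

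*CISH* (chromosome 3, 50606489 to 50611774, minus strand) encodes the inhibitor CIS. It measured 39.3, 38.6 and 38.6 CPM in the attached libraries, 43.1, 46.0 and 40.2 CPM in the suspended vehicle libraries, and 43.2, 49.2 and 41.8 CPM with AT0174. As for *SOCS2*, the 6 suspended libraries all exceeded the 3 attached ones. The log2 fold change in suspension was 0.15, or 1.11-fold (standard error 0.0632), and did not pass the threshold in edgeR (adjusted p = 0.114). Between AT0174 and vehicle it was 0.05 (standard error 0.0621, edgeR adjusted p = 0.878).

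The promoter of *CISH* is shown because it carries more copies of the palindrome to which STAT dimers bind than the window of any other member searched. Promoter windows of RefSeq (GRCh38.p14), 250 bases before to 50 bases after a start site, were given for 9 of the 10 members, 14 windows in all, and not for *SOCS2*. They were searched for TTCNNNGAA, which reads the same on both strands. The window of *CISH*, chr3:50611725-50612024 on the minus strand, holds 4 matches, printed in capitals.
CISH: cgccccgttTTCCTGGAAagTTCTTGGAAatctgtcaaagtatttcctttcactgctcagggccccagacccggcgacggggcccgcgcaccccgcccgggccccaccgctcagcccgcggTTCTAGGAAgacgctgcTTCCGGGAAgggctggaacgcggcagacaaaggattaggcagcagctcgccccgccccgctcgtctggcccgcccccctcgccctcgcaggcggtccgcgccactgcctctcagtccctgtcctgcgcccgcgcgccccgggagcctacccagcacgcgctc
The matches begin 241, 230, 129 and 112 bases before the start site. Of 35116 windows of the same length, 7.66% hold at least 1 match and 0.456% hold 2 or more. No window holds more than 4, and 7 windows, of 6 gene symbols, hold 4. The other member with a match was *LIFR*, with 1 match in each of 2 of its 3 windows, shown in capitals with 10 bases on either side.
LIFR start site 1 (chr5:38595562-38595570, minus strand): ccattactagTTCCTTGAAccacaatcca
LIFR start site 2 (chr5:38557641-38557649, minus strand): gctttggagtTTCATCGAAaggtctttaa
A match describes the letters in the window and is not a measured binding site. The windows of *IL6*, *IL6R*, *IL6ST*, *JAK1*, *STAT3*, *SOCS1* and *SOCS3* held none. Neither *SOCS3* window, chr17:78360876-78361175 or chr17:78359618-78359917, spans 78360077, the first base of the gene on the minus strand. Likewise the *IL6* window, chr7:22726950-22727249, does not span 22725884, the first base of *IL6*, and no *LIFR* window spans 38608354, the first base of *LIFR*. The bases just before these starts were therefore not searched, and the absence of a match does not cover them.

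*SOCS3* (chromosome 17, 78356778 to 78360077, minus strand), which binds gp130 and JAK kinases to stop IL6 signaling, had 61 to 107 counts per library. It measured 2.80, 2.08 and 2.01 CPM in the attached libraries, 1.96, 1.38 and 1.94 CPM in the suspended vehicle libraries, and 2.07, 2.17 and 1.52 CPM with AT0174. Its suspended vehicle libraries were all below its attached ones, by a small margin, while the suspended conditions overlapped. The log2 fold change in suspension was −0.38 (standard error 0.207, 95% interval −0.83 to 0.07), which did not pass the threshold (edgeR adjusted p = 0.215). The estimate was close in size to that of *SOCS2* and opposite in sign, with a larger standard error.

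*SOCS1* (chromosome 16, 11254417 to 11256204, minus strand) encodes an inhibitor that binds JAK kinases directly and is best known for restraining interferon signaling. It measured 1.15, 1.52 and 1.44 CPM in the attached libraries, 0.698, 1.72 and 1.68 CPM in the suspended vehicle libraries, and 1.30, 1.60 and 1.56 CPM with AT0174. Suspended vehicle replicate 1 stood apart with 27 counts, against 76 and 74 in replicates 2 and 3. The log2 fold change in suspension was 0.01 with an interval from −0.62 to 0.63, and without that library it was 0.32, so no direction is given.

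Counted over the members, 1 of 9 tested (11.1%) passed the threshold for suspended against attached cells, both with vehicle. Of all genes tested, 21.2% did, 10.4% higher and 10.8% lower. The groups did not overlap for 3 of 9 members (33.3%), against 38.1% of all genes tested. These were *SOCS2* and *CISH*, higher in suspension, and *SOCS3*, lower. A single member is 11.1% of the 9, so neither share was told apart from that of all genes tested. The median log2 fold change of the members was 0.05, and that of all genes tested was −0.00025.

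Between AT0174 and vehicle in suspended cells, 0 of 9 members passed the threshold in edgeR, against 0.779% of all genes tested. At an unadjusted p under 0.05 in edgeR there were 2, *IL6R* and *IL6ST*. No share of all genes tested was taken at that level, so this count was not compared. DESeq2 called 1 member and 239 of all genes, and limma-voom 0 members and 127 of all genes. For *IL6R* and *IL6ST* the groups did not overlap (22.2%, against 15.4% of all genes tested), with *IL6R* higher and *IL6ST* lower in AT0174. With 9 members, this share was not told apart from that of all genes tested. The estimates of *IL6R* and *IL6ST* had opposite signs, neither past the threshold. That of *LIFR*, the other receptor chain among the members, was 0.02 with overlapping groups.

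**Figure D2:**
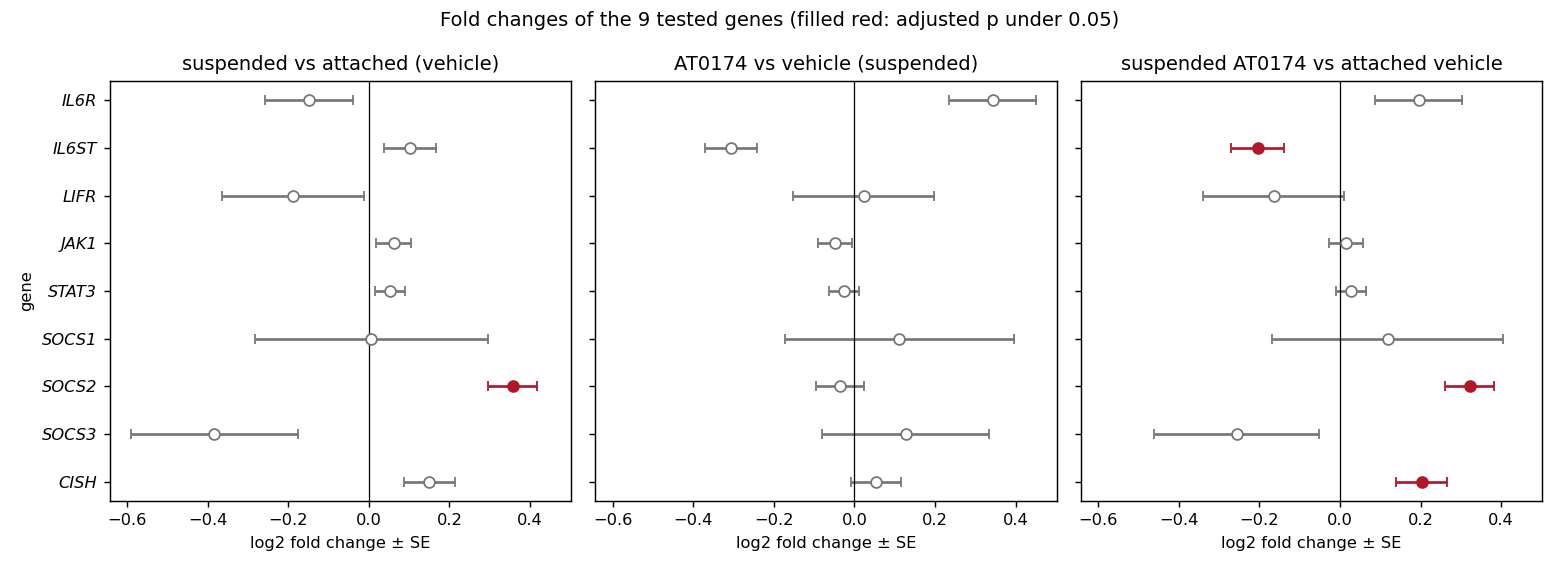
The x axis of each panel gives the log2 fold change of the 9 tested genes in 1 contrast, with bars of ± 1 standard error, and red filled points have an edgeR adjusted p under 0.05. *SOCS2* is filled at 0.36 in suspended against attached cells with vehicle, no gene is filled for AT0174 against vehicle, and *IL6ST* (−0.20), *SOCS2* (0.32) and *CISH* (0.20) are filled in suspended cells with AT0174 against attached cells.

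Suspended cells with AT0174 were also compared with attached cells with vehicle, a contrast that mixes culture and inhibitor and shares its libraries with the other contrasts. There, 3 of 9 members passed (33.3%, against 24% of all genes tested). *SOCS2* was higher with a log2 fold change of 0.32 (edgeR adjusted p = 0.00272) and *CISH* with 0.20, or 1.15-fold (edgeR adjusted p = 0.0343). *IL6ST* was lower, with −0.20 or 0.868-fold (edgeR adjusted p = 0.0399). The calls of *CISH* and *IL6ST* were close to the threshold. Leaving out attached replicate 1, 2 or 3 or AT0174 replicate 1 or 2 ended the call of *CISH* (adjusted p from 0.0530 to 0.121 in edgeR), and leaving out attached replicate 1 or 2 or AT0174 replicate 2 or 3 ended that of *IL6ST* (adjusted p from 0.100 to 0.115 in edgeR). The call of *IL6ST* was also lost with DESeq2 (adjusted p = 0.0853), limma-voom (adjusted p = 0.0514), no filter on low counts (edgeR adjusted p = 0.102), a fit of only the 6 libraries compared (edgeR adjusted p = 0.0646), a block for replicate number (edgeR adjusted p = 0.0541) and counts rebuilt from TPM, and it held in 4 of 14 alternatives.

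The reads of each gene were divided among its annotated transcripts by Salmon, so the shares below are estimates. *CISH* was given mostly to the coding transcript CISH-201, with 87.0% to 92.1% of the gene's TPM, and *SOCS3* wholly to SOCS3-201. SOCS2-202 took 56.2% to 66.6% of *SOCS2*, and JAK1-201 took 52.4% to 73.2% of *JAK1*. STAT3-212 took 33.02% to 42.11% of *STAT3*, which has 50 transcripts in the files. Each of these transcripts had the largest share of its gene's TPM in all 9 libraries. By reads the same was true except for *STAT3*, where STAT3-212 led in 6 libraries, STAT3-201 in 2 and STAT3-231 in 1. On that scale CISH-201 took 71.9% to 81.5% of *CISH*, and CISH-203, annotated with a retained intron, took 18.5% to 28.1%.

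The receptor chains were split less evenly across libraries. For *IL6ST* the leading transcript by TPM was 1 of 4 over the 9 libraries, and for *LIFR* it was also 1 of 4. By reads, IL6ST-213, annotated as a target of nonsense-mediated decay, led in all 9 libraries with 60.1% to 75.2% of the gene, while the reference coding transcript IL6ST-204 took 0% to 19.0%. The share of IL6R-202 in *IL6R* ranged from 36.3% to 87.1% of TPM. The leading transcript of *IL6ST* also differed among the 3 attached libraries.

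This split bears on the scale of the receptor values. Summed TPM was 3.30 ± 0.617 in attached cells, 4.97 ± 0.553 in suspended cells with vehicle and 4.08 ± 1.05 with AT0174 (SD, n = 3 each). The attached libraries, from 2.79 to 3.99 TPM, lay below the suspended vehicle libraries, from 4.49 to 5.58 TPM. With counts rebuilt from TPM, the log2 fold change of *IL6ST* in suspension was 0.50 in place of 0.10 (edgeR adjusted p = 0.0982). That between suspended AT0174 and attached cells was 0.25, of the opposite sign, and that between AT0174 and vehicle was −0.25 with an edgeR adjusted p of 0.871. For *IL6R* the same change of scale gave 0.71 between AT0174 and vehicle in place of 0.34 (edgeR adjusted p = 0.505). Its summed TPM was 1.47 ± 0.150 with vehicle and 2.33 ± 0.716 with AT0174 (SD, n = 3 each), and on this scale the groups overlapped. For *LIFR* it gave 0.42 in suspension, where the estimate from gene counts was −0.19. For *SOCS2* it gave 0.45 in suspension (edgeR adjusted p = 0.0245) and ended its call in suspended AT0174 against attached cells (0.32, edgeR adjusted p = 0.0767). SOCS1-202 took 12.2% to 30.3% of the TPM of *SOCS1* in suspended cells with vehicle and at most 8.67% elsewhere, which rests on no more than 76 counts of the gene per library.

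**Figure D3:**
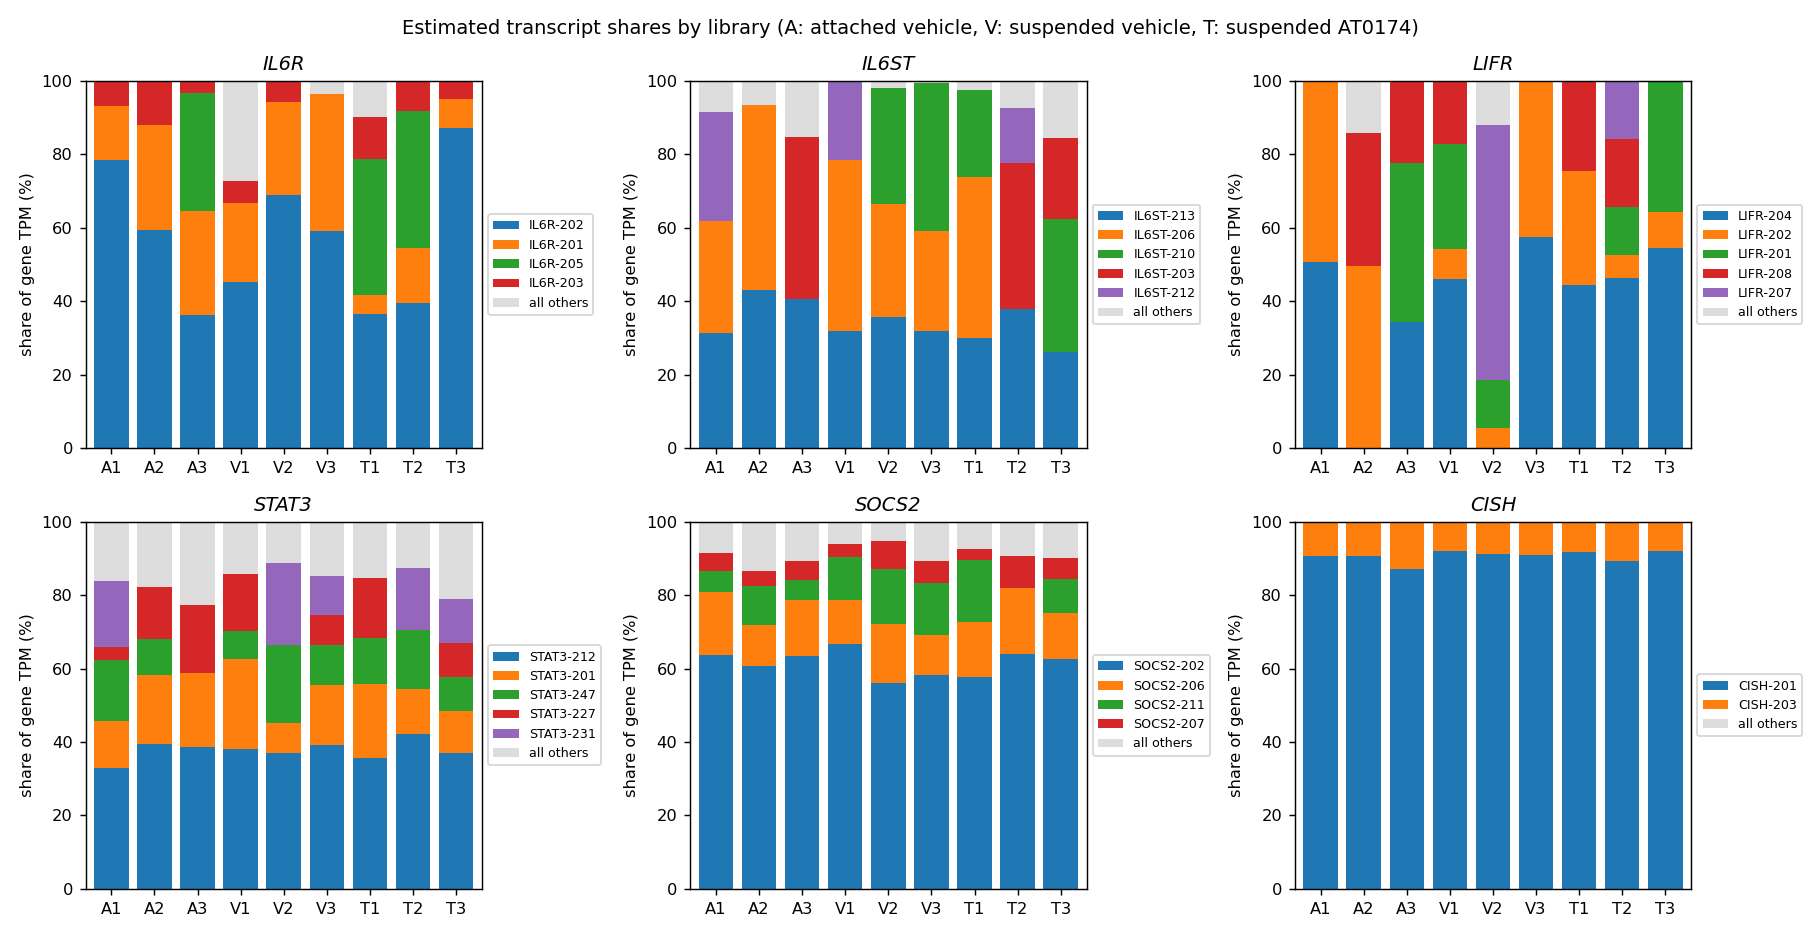
Each panel stacks, for 1 gene, the share of its TPM (y axis, percent) that Salmon gave to each transcript in the 9 libraries (x axis; A attached vehicle, V suspended vehicle, T suspended AT0174). CISH-201 holds 87.0% or more in every library, whereas the bars of *IL6ST* and *LIFR* change composition from one library to the next.

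Several members share exon bases with a neighbour, and whether the counting used strand is not given in the sources used here. *CISH* shares 218 exon bases with *MAPKAPK3* on the opposite strand, which had up to 3807 counts. *SOCS2* shares 277 with *SOCS2-AS1*, which had up to 89 counts, against at least 663 of *SOCS2*. *LIFR* shares 629 with *LIFR-AS1* on the opposite strand, which had up to 26 counts, against 61 to 85 of *LIFR*. Reads from the shared bases could be assigned to either gene, and the neighbour of *CISH* was the more abundant of the pair.

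Other genes of the pathway were taken from 9 lists that held 87 genes beside the members, of which 57 were tested. Between suspended and attached cells with vehicle, 10 were higher and 12 lower in edgeR, or 38.6%, against 21.2% of all genes tested. DESeq2 called 20 of the 57 and limma-voom 22, with 3199 and 3251 of all genes. The lists were chosen with earlier results of these data known. The 2 shares are therefore a description, and their difference was not tested. Between AT0174 and vehicle, 0 of the 57 passed in edgeR, against 0.779% of all genes tested, and DESeq2 and limma-voom called 0. At an unadjusted p under 0.05 in edgeR there were 9, and no share of all genes tested was taken at that level.

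Among 8 receptors of the gp130 family, 6 were tested, and 2 were lower in suspension. *IL11RA*, the receptor of IL11, fell from 8.07 ± 1.17 to 5.66 ± 0.573 CPM, a log2 fold change of −0.51 (n = 3 each, edgeR adjusted p = 0.0134). *OSMR*, the oncostatin M receptor chain, fell from 6.59 ± 0.485 to 5.32 ± 0.391 CPM (log2 fold change −0.31, edgeR adjusted p = 0.0373). The median log2 fold change of the 6 receptors, the members *IL6R*, *IL6ST* and *LIFR* included, was −0.17. Neither gene passed between AT0174 and vehicle.

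Of 4 JAK kinases, 3 were tested and *TYK2*, which serves interferon and gp130 receptors, was lower in suspension (log2 fold change −0.26, edgeR adjusted p = 0.00918). *JAK3*, a kinase of blood cells, had 0 counts in all 9 libraries. Of 7 STAT factors, 5 were tested and *STAT2*, which acts in interferon signaling, was lower (log2 fold change −0.24, edgeR adjusted p = 0.00648). *STAT5A* had no more than 5 counts in any library, while *STAT5B* was at 8.43 ± 0.339, 8.91 ± 0.114 and 9.31 ± 1.16 CPM in the 3 conditions and was not called. These STAT5 genes, with *JAK3* and *LIF*, were named after their values were seen.

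All 8 genes of the SOCS family were tested. Beside *SOCS2*, *SOCS6* was higher in suspension (log2 fold change 0.24, edgeR adjusted p = 0.00513) and *SOCS7* was lower (−0.13, edgeR adjusted p = 0.0465). The remaining 5 did not pass, and the median log2 fold change of the family was 0.00078. Of 10 PIAS proteins and phosphatases, which restrain STAT factors in other ways, 9 were tested and *PIAS3*, an inhibitor that binds STAT3, was lower (log2 fold change −0.25, edgeR adjusted p = 0.00640).

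Of 17 other receptors coupled to STAT factors, 12 were tested, with 4 higher and 1 lower in suspension. *EPOR*, the erythropoietin receptor, fell from 10.4 ± 0.563 to 6.69 ± 0.437 CPM (log2 fold change −0.64, edgeR adjusted p = 0.000441). *IL4R*, a chain of the IL4 receptor, rose by 0.37 on the log2 scale (edgeR adjusted p = 0.00648). *GHR*, the growth hormone receptor, rose from 70.3 ± 3.16 to 80.2 ± 2.82 CPM (log2 fold change 0.19, edgeR adjusted p = 0.0180). *PRLR*, the prolactin receptor, rose from 129 ± 2.98 to 144 ± 8.47 CPM (log2 fold change 0.16, edgeR adjusted p = 0.0437). In suspended AT0174 against attached cells, *EPOR* was again lower (log2 fold change −0.63, edgeR adjusted p = 0.000303) and *IL4R* higher (0.23, edgeR adjusted p = 0.0489). There *GHR* had a log2 fold change of 0.12 (edgeR adjusted p = 0.0965) and *PRLR* one of 0.00072 (edgeR adjusted p = 0.995), neither past the threshold. A link of any of these receptors to *SOCS2* was not tested.

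**Figure D4:**
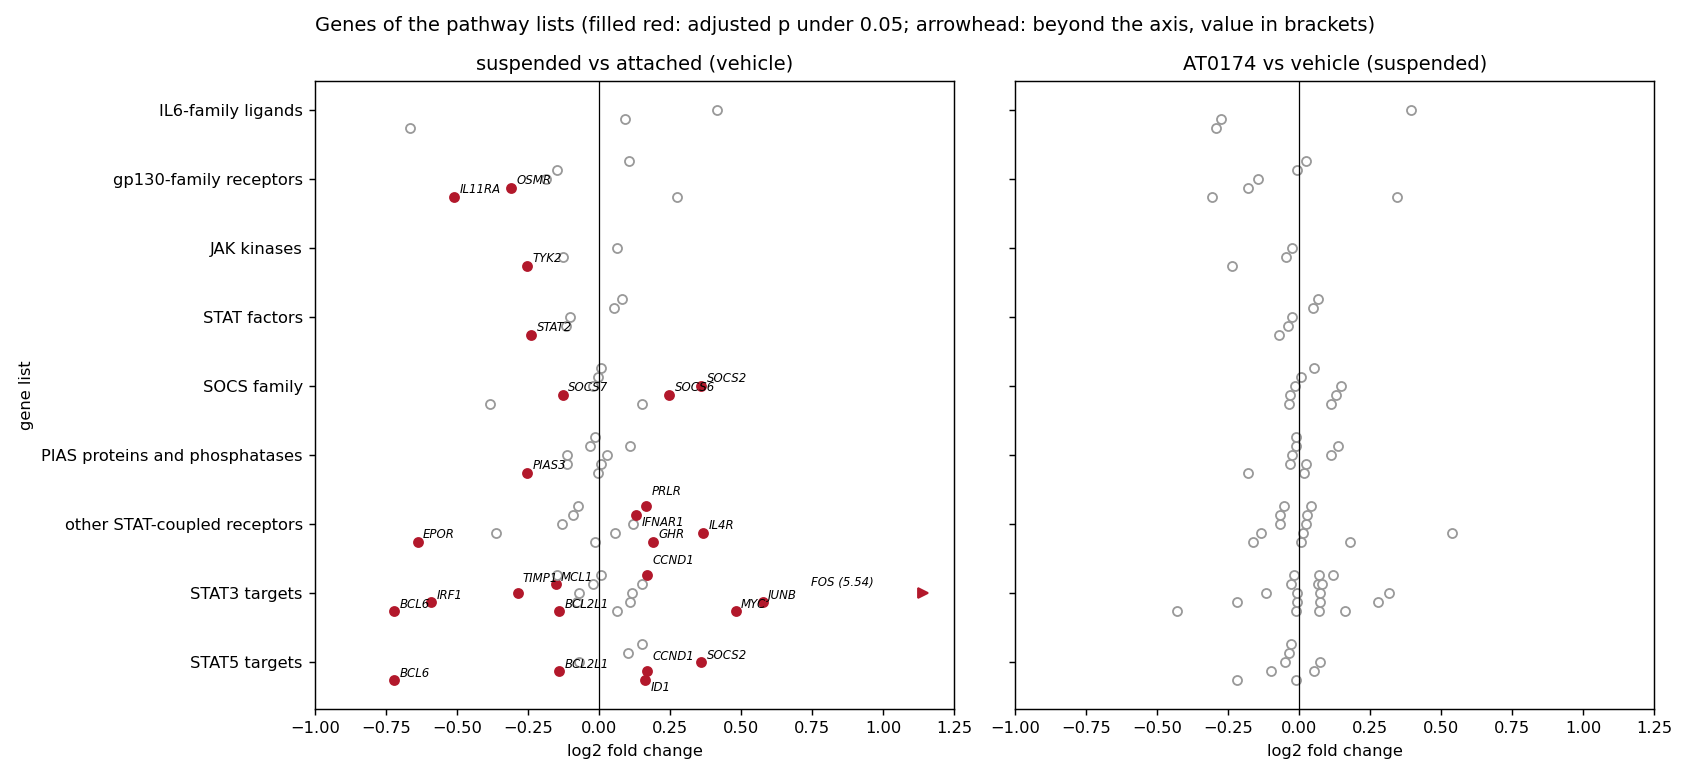
The x axis gives the log2 fold change of each tested gene of the 9 lists (rows), with red filled points for an edgeR adjusted p under 0.05. A gene of more than 1 list is drawn in each. Called genes lie on both sides of 0 in suspension, *FOS* lies beyond the axis at 5.54, and no point is filled for AT0174.

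The list of STAT3 targets held 28 genes, of which 18 were tested, 4 higher and 5 lower in suspension. Their median log2 fold change was −0.01. The largest change was that of *FOS*, an immediate-early gene with many other inputs (log2 fold change 5.54, edgeR adjusted p = 2.89e-06). *BCL6*, a transcriptional repressor, fell by 0.72 on the log2 scale (edgeR adjusted p = 0.00546), and *IRF1*, a factor of the interferon response, fell by 0.59 (edgeR adjusted p = 0.0141). *JUNB*, a partner of FOS, rose by 0.57 (edgeR adjusted p = 4.20e-05). Targets were therefore called in both directions. The acute-phase genes of the list, which STAT3 induces in liver, were near or at 0, with *SAA1*, *CRP* and *HP* at 0 counts in all 9 libraries and *FGB* and *FGG* at no more than 2.

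The list of STAT5 targets held 11 genes, of which 8 were tested, 3 higher and 2 lower in suspension. Beside the member *SOCS2*, the largest change was that of *BCL6*, which was lower by the value given above. *CCND1*, which encodes cyclin D1, was higher (log2 fold change 0.17, edgeR adjusted p = 0.00300), as was *ID1*, an inhibitor of differentiation factors (0.16, edgeR adjusted p = 0.0272), and *BCL2L1*, a survival gene, was lower (−0.14, edgeR adjusted p = 0.0176). The median log2 fold change of the list was 0.12, against −0.00025 for all genes tested. That median includes the members *SOCS2* (0.36) and *CISH* (0.15), and *SOCS2* is among the 3 higher genes, so the list is not independent of them.

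The genes most like *SOCS2* were those with the smallest root mean square difference of log2 CPM over 9 libraries, each gene centred on its own mean, among 9363 genes with a mean of at least 10 CPM. They were *URB2* at 0.0441, *BOLA2-SMG1P6* at 0.0472 and *DDX28* at 0.0476, where the root mean square of *SOCS2* about its own mean was 0.172. Their log2 fold changes in suspension were 0.30, 0.34 and 0.33, beside the 0.36 of *SOCS2*. *BOLA2-SMG1P6* is a readthrough gene that shares reads with its neighbours, and its count is uncertain. The genes share libraries and scaling, and the likeness is a description.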

How the data were processed

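The authors processed the reads with nf-core/rnaseq (Trim Galore 0.6.7 with Cutadapt 3.4, STAR 2.7.9a on GRCh38, Salmon 1.10.1, tximport). The labels name a SMARTER kit and the methods a Universal Plus mRNA kit. The deposited gene table holds estimated counts, without normalization, and the deposited transcript files hold estimated counts and TPM, which the authors made with Salmon. Estimated counts were rounded, filtered with filterByExpr (15528 of 59452 genes kept) and scaled by TMM, and all 9 libraries entered 1 quasi-likelihood fit of edgeR 4.0.16 (R 4.3.3) by condition. A gene was called where its Benjamini–Hochberg adjusted p was below 0.05. Gene TPM is the sum over transcripts. Transcript types and positions came from GENCODE 44.

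The members, lists and alternatives were chosen with earlier results of these data known. The single values of 1 luminal marker are not reported here. From each list up to 4 called genes beside the members are named, largest change first. Replicates were biological triplicates per the series text, and p-values measure their spread. On simulated data with 200 of 15528 genes changed, the share found for suspended against attached cells was 38.5% for 1.2-fold, 63.5% for 1.5-fold and 78.5% for 2-fold changes, and for AT0174 against vehicle it was 35%, 72.5% and 78.5%. Between 2.78% and 8.72% of the calls were unchanged genes. The simulation changed far fewer genes than the 3297 called in suspension, and the adjusted p depends on that number. Its shares therefore do not give the sensitivity of the suspension contrast. The alternatives were DESeq2 1.42.0, limma-voom (limma 3.58.1), DESeq2 size factors, no filter, a minimum of 10 counts, counts rebuilt from TPM, a threshold of 0.01, fits of the 6 libraries compared, a block for replicate number, and each library left out in turn.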

Additional observations from a re-analysis of the deposited data

How the results depend on the processing

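The rise of *SOCS2* in suspension kept its direction and passed the threshold in all 14 alternatives (log2 fold change 0.31 to 0.45, highest adjusted p 0.0245, in edgeR with counts rebuilt from TPM). The difference of *IL6ST* between AT0174 and vehicle kept its sign in all 14 (−0.36 to −0.25) and passed in 3, with adjusted p-values from 0.0137 to 0.871 in edgeR. At an adjusted p threshold of 0.01, 1405 genes were called in suspension, 52 with AT0174 and 1839 in suspended AT0174 against attached cells, with 13 and 14 list genes in the first and last and 1 member in the last. With counts rebuilt from TPM these were 1714, 35 and 2056 genes, with 13 list genes in suspension and 1 member in the last. DESeq2 called 239 genes with AT0174 and no filter 499, with 3 list genes. In that comparison DESeq2, no filter and the minimum of 10 counts each called 1 member, *IL6ST*, where edgeR as reported called 0, and in suspension no filter called 2, *SOCS2* and *CISH*. Leaving out 1 library gave 1935 to 2693, 63 to 86 and 2239 to 3276 genes, 16 to 23 and 16 to 21 list genes in the contrasts with attached cells, and 1 to 2 members in the last. By reads in place of TPM, the share was 78.7% for CISH-201, 80.1% for IL6R-202, 8.11% for IL6ST-204, 68.6% for JAK1-201 and 51.9% for LIFR-202. By CPM in place of TPM, the ranks were 2 for *JAK1*, 3 for *CISH*, 4 for *SOCS2*, 6 for *IL6R*, 7 for *SOCS3*, 8 for *LIFR* and 9 for *SOCS1*.

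Estimates of 8 of 9 members, *IL6R* excepted, changed sign under some alternative in some contrast. Of these estimates 1 had been called, that of *IL6ST* in suspended AT0174 against attached cells (−0.20). In suspension, *SOCS1* (0.01) was −0.069 with limma-voom, −0.00063 with 6 libraries, −0.065 with counts rebuilt from TPM, and −0.19 to 0.32 when 1 library was left out. With counts rebuilt from TPM, *LIFR* was 0.42 in suspension (−0.19 as reported) and 0.46 in suspended AT0174 against attached cells (−0.16), where *IL6ST* was 0.25 and *JAK1* −0.026. *JAK1* ranged there from −0.0078 to 0.053 when 1 library was left out. The ranges between AT0174 and vehicle were −0.072 to 0.13 for *LIFR*, −0.058 to 0.00079 for *STAT3*, −0.20 to 0.30 for *SOCS1*, −0.14 to 0.0063 for *SOCS2* (−0.082 to 0.0063 when 1 library was left out), −0.026 to 0.27 for *SOCS3* and −0.020 to 0.10 for *CISH*. The cause was not tested.

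Deviations from the group means of libraries with the same replicate number correlated between −0.07 and 0.05, and not every library correlated best with its own number, so the samples share only a number. With the replicate block, 3250, 146 and 3677 genes were called, *SOCS2* and *CISH* kept their calls, *SOCS1* in suspension was −0.046, and *IL6ST* in suspended AT0174 against attached cells had an edgeR adjusted p of 0.0541. Genes under about 100 counts, *SOCS1*, *SOCS3* and *LIFR*, had the widest intervals.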
